A study of Schmidtea mediterranea with 28 samples.

Results

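Neoblast-rich X1 cells of the planarian *Schmidtea mediterranea* were compared directly between *bruli*(RNAi) and *mbnl*(RNAi) worms, with no control library in the contrast. The comparison rests on 4 of the 28 RNA-Seq libraries of the series, replicates 1 and 2 of each knockdown, chosen by their labels alone. X1 is the sorting gate for cells with duplicated DNA. All worms were of the asexual Berlin-1 strain, derived from a single individual, so every library shares 1 genetic background. *bruli*(RNAi) worms received dsRNA against *bruli* on 3 consecutive days at 1 µg/µl and were kept at 20 °C. *mbnl*(RNAi) worms received, on the same schedule, a mix of dsRNAs against 4 muscleblind-like genes (*mbnl-1* and *mbnl-like-1*, *-2* and *-3*), each at 1 µg/µl. Control(RNAi) worms, used here only for orientation, received GFP dsRNA. By the study's account, cells were sorted at a time after RNAi when *bruli* RNAi had not yet lowered the number of neoblasts. Pooled or separate worms behind each replicate are not stated in the labels, so the spread between replicates may be partly technical.

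CELF and MBNL proteins are RNA-binding regulators of alternative splicing that often act on the same exons in opposite directions, as known best from vertebrate muscle and brain. *bruli* encodes a CELF-family protein, which planarian neoblasts need for their long-term maintenance. Neoblasts are the dividing stem cells of the worm and carry PIWI, vasa and Tudor proteins, the components of germ-granule-like bodies and of the piRNA pathway. MBNL proteins are known in vertebrates for promoting the splicing patterns of differentiated cells. The direct contrast asks how transcript levels in stem cells differ when one or the other family is depleted. Splicing itself was not analysed here.

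The dsRNAs define the contrast, and the primers used to make those against the transcripts that were measured in X1 are shown for that reason. *mbnl-1* was targeted with 2 dsRNAs, because an older transcriptome listed its locus under separate identifiers.
bruli (bruno-like) forward: ctccactcgtaaattccagtcc
bruli (bruno-like) reverse: ctccctttggtcgttttaattg
mbnl-1 forward: tgctatagcgccatattctcaa
mbnl-1 reverse: gctgatcttgctggaattaggt
mbnl-1, other dsRNA, forward: acggaacccagatcaattacag
mbnl-1, other dsRNA, reverse: caccaggcaataaagtatgcaa
mbnl-like-1 forward: ttccacagcttctaacgatcaa
mbnl-like-1 reverse: ctattggaagccactgaaatcc

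The *bruli*(RNAi) libraries held 21300317 and 26112135 counts and the *mbnl*(RNAi) libraries 19460910 and 34950244, for replicates 1 and 2, so replicate 1 was the shallower of each pair. At these depths 3 counts equal 0.0858 to 0.154 CPM. CPM are counts scaled to 1000000 per library, after TMM scaling of the 7 X1 libraries together. CPM are not corrected for transcript length, so they are compared between libraries and not between genes. Log2 differences are *bruli*(RNAi) minus *mbnl*(RNAi), with the replicate number as a block. A transcript was called where edgeR's quasi-likelihood test gave an adjusted p under 0.05, by the Benjamini-Hochberg method across the 10361 transcripts that entered it.

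The targeted transcripts followed the labels. *bruli* stood at 103 and 140 CPM in the *bruli*(RNAi) libraries and at 731 and 842 CPM in the *mbnl*(RNAi) libraries. It was 6.53-fold lower after *bruli* RNAi, a log2 difference of -2.71 (SE 0.23), with an adjusted p of 3.41e-28 in edgeR's quasi-likelihood test. The groups did not overlap, and the *mbnl*(RNAi) libraries lay near the control(RNAi) libraries (807 and 1014 CPM). *mbnl-1*, a planarian muscleblind homologue, stood at 90.4 and 76.9 CPM after *bruli* RNAi and at 39.2 and 31.3 CPM after *mbnl* RNAi. Its log2 difference was 1.25 (SE 0.22, edgeR adjusted p 6.91e-07), and control(RNAi) libraries stood between the groups at 58.3 and 51.2 CPM. *mbnl-like-1*, of the same family, was at 25.6 and 26.8 CPM against 8.26 and 8 CPM. Its log2 difference was 1.69 (SE 0.25, edgeR adjusted p 2.61e-09), again with the control(RNAi) libraries in between, at 17.8 and 17.3 CPM. *mbnl-like-3* had 2 and 7 counts after *bruli* RNAi and 1 and 2 counts after *mbnl* RNAi, too few for a test, and *mbnl-like-2* was not analysed here.

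**Figure D1:**
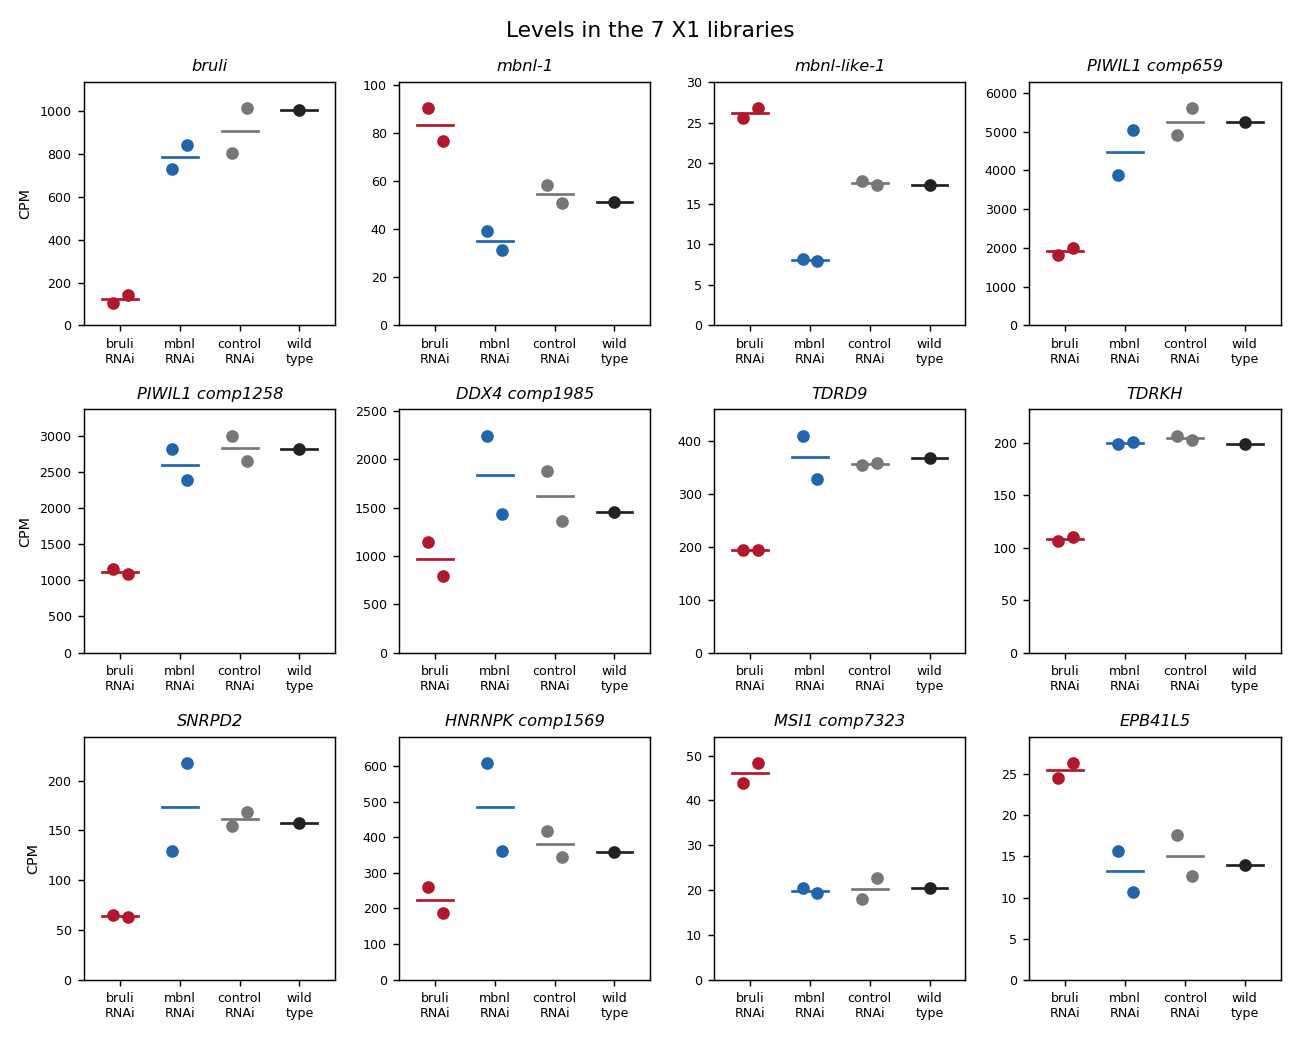
Levels of 12 transcripts in the 7 X1 libraries, in CPM on a linear axis from 0. Each point is 1 library, and each line is the mean of its group (2 libraries each for *bruli*, *mbnl* and control RNAi, 1 for wild type). In every panel both *bruli*(RNAi) points lie on one side of both *mbnl*(RNAi) points, from *bruli* at 103 and 140 CPM against 731 and 842 CPM to *EPB41L5* at 24.6 and 26.4 CPM against 15.7 and 10.7 CPM. Such separation was part of the rule for naming annotated transcripts, and it held for 31.0% of all transcripts tested.

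Of 10361 transcripts tested, 734 were called higher and 563 called lower after *bruli* RNAi, which is 7.08% and 5.43% of those tested. Median levels were 14.4 CPM for the higher, 43.1 for the lower and 20.8 for all transcripts tested. The shares of all transcripts, set beside those of gene lists below, are not matched for level. The called differences were mostly moderate, since 602 reached 2-fold (406 higher, 196 lower) and 101 reached 4-fold (76 higher, 25 lower). Without the replicate block, edgeR called 0 transcripts, with 532 at an unadjusted p under 0.05, against 2502 with the block. With the block 1 residual degree of freedom is left. The quasi-likelihood dispersion was then edgeR's trend with level across all transcripts, so that a transcript's own spread did not enter its p-value. DESeq2 with the block called 741 transcripts, and edgeR with the dispersion shared over all 12 sorted RNAi libraries called 312, of which 311 were among the 1297. Leaving out *bruli* replicate 1 or 2 or *mbnl* replicate 1 or 2, which allows no block, left 5, 40, 78 and 127 calls. In the called group 56.6% were higher after *bruli* RNAi, against 45.9% with DESeq2, 47.0% with its size factors in edgeR, and 72.7% and 71.9% with limma on log2(cRPKM + 1) and log2(cRPKM + 0.1), where cRPKM are the deposited length-corrected levels. The last shifted the median of all transcripts to 0.11.

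The direction was shared by both replicates. Of the 734 transcripts called higher, 732 were higher within replicate 1 and within replicate 2, and all 563 called lower were lower within both, where 6759 of all 10361 tested had the same sign in both. The test selects on the difference over both replicates, and a large one by itself makes like signs within them likely. The median differences were 0.99 and 1.01 on the log2 scale for the higher transcripts and -0.84 and -0.91 for the lower ones, within replicates 1 and 2. In the higher group, 97 transcripts reached 4-fold within replicate 1 and 24 within replicate 2, with 9 in both. The *bruli*(RNAi) and *mbnl*(RNAi) libraries did not overlap for 3217 transcripts, or 31.0% of those tested, and for 668 of the higher and 421 of the lower called transcripts.

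**Figure D2:**
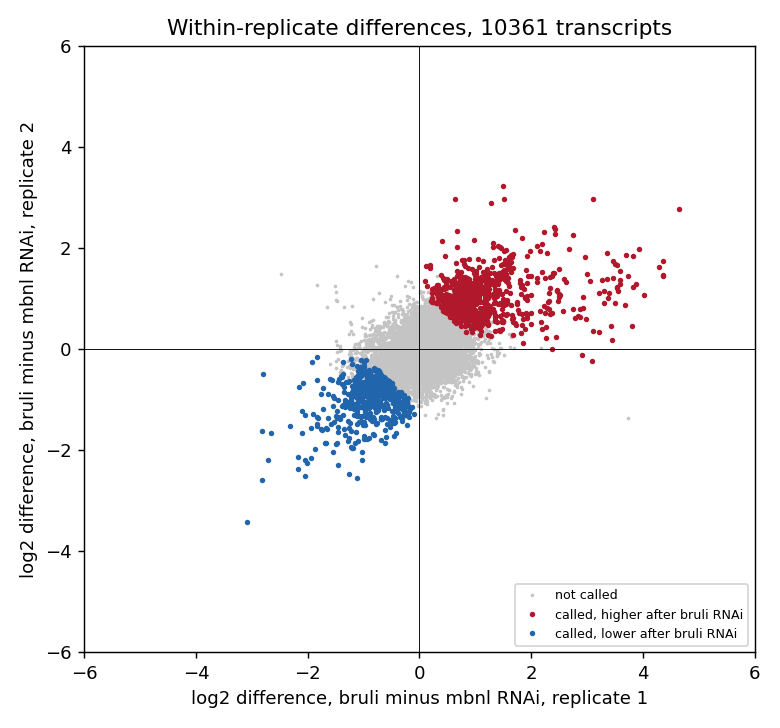
Within-replicate log2 differences, *bruli* minus *mbnl* RNAi, for 10361 transcripts, with replicate 1 on the horizontal and replicate 2 on the vertical axis (log2 of CPM + 0.5). Red points were called higher and blue points called lower. The 734 red and 563 blue points fall almost entirely in the upper right and lower left quadrants, and the red cloud extends farther along replicate 1, where 97 transcripts reached 4-fold against 24 in replicate 2.

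Germ-granule and piRNA transcripts were the list with the largest share of calls. Of 7 members, all tested, 6 were called lower after *bruli* RNAi (85.7%, beside 5.43% of all) and none higher. Their median was -0.92 on the log2 scale, beside 0 for all transcripts tested. With all 4 libraries and the block 2 to 6 of the 7 were called lower in the fits tried. In the fit of 6 X1 libraries 0 were called lower without *bruli* replicate 1, *bruli* replicate 2 or *mbnl* replicate 1, and 1 without *mbnl* replicate 2. The median lay between -1.10 and -0.73 in all these fits, those without a library included. The PIWI homologue *PIWIL1* comp659 stood at 1821 and 2006 CPM after *bruli* RNAi against 3890 and 5041 CPM after *mbnl* RNAi. Its difference was -1.21 (SE 0.24, edgeR adjusted p 1.73e-05). The other PIWI transcript, *PIWIL1* comp1258, stood at 1150 and 1089 CPM against 2811 and 2385 CPM, with the same difference of -1.21 (SE 0.23, edgeR adjusted p 1.01e-05). PIWI proteins bind piRNAs and silence transposons, and both transcripts mark planarian neoblasts. They carry the same human name and may share reads, so they are not independent measurements.

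The vasa-type RNA helicases behaved alike. *DDX4* comp1985 was at 1144 and 789 CPM after *bruli* RNAi and at 2247 and 1440 CPM after *mbnl* RNAi, a difference of -0.92, and *DDX4* comp2082 differed by -0.88. *TDRD9*, whose mouse counterpart is a Tudor-domain helicase of the piRNA pathway, was at 195 CPM in both *bruli*(RNAi) libraries against 411 and 328 CPM (log2 -0.92). *TDRKH*, a Tudor and KH protein that acts in piRNA maturation in mouse, was at 106 and 110 CPM against 199 and 201 CPM (log2 -0.89). *TDRD12*, a further Tudor protein, differed by -0.44 and was not called (edgeR adjusted p 0.179). For each of these Tudor transcripts the control(RNAi) libraries lay close to the *mbnl*(RNAi) libraries, as with *TDRKH* at 207 and 203 CPM.

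Summed over the 7 neoblast markers other than *bruli*, which are these same germ-granule transcripts, the level was 5123 and 5325 CPM of plain library totals after *bruli* RNAi. It was 9771 and 10694 after *mbnl* RNAi, 11394 and 11712 after control RNAi and 11784 in wild type X1. X1 of both knockdowns thus held all neoblast markers, at a lower level after *bruli* RNAi. Whether that reflects fewer neoblasts in the gate or less of this RNA per cell cannot be told apart in bulk RNA. The study reports, from cell sorting, no decrease yet of the neoblast population after *bruli* RNAi at the time of sampling. Of 13 markers of differentiated cells and progeny, 4 were tested and none was called. Their summed level was 57.9 and 59.3 CPM after *bruli* RNAi, 41.8 and 57.3 after *mbnl* RNAi and 48.3 and 55.8 after control RNAi. None of the 13 was at 0 in any X1 library. A large part of each sum was *ELAVL4* comp10994 alone, at 20.7 and 32.9, 13.6 and 37, and 26 and 38.7 CPM in the same order. In wild type that transcript stood at 36.9 CPM in X1 and at 20.9 and 17.7 CPM in Xins, so it did not mark differentiated cells here. The sum is therefore no measure of differentiated cells, and a sum without this transcript was not made.

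Splicing components made up much of the rest of the named transcripts that were lower after *bruli* RNAi. Names exist only for the study's tables of RNA-binding proteins, core spliceosome genes, RNAi targets and orthologues with stem-cell splicing. That named transcripts are mostly of these kinds therefore follows from the tables. Of 77 core spliceosome transcripts, 11 were called lower (14.3%, beside 5.43% of all transcripts) and 0 higher in edgeR, the median was -0.33 and 66 members had a negative difference. *SNRPD2*, an Sm protein of the ring that encircles spliceosomal snRNAs, had the largest difference among them. It was at 65.1 and 63.1 CPM after *bruli* RNAi and at 129 and 218 CPM after *mbnl* RNAi, a difference of -1.39 (SE 0.22, edgeR adjusted p 9.86e-09), and control(RNAi) libraries stood at 154 and 169 CPM. Its fellow Sm transcript *SNRPD3* differed by -0.54 and was not called (edgeR adjusted p 0.0807). The component with KEGG number K12862 was at 59.1 and 30.5 CPM against 126 and 83.8 CPM (log2 -1.28, SE 0.22), and that with K12874 differed by -0.96. *LSM4*, a member of the related LSm ring, differed by -0.81, and *SF3B4*, a U2 snRNP protein at the branch site, by -0.77. The remaining 6 called components, K12847, K12880, K12846, K12857, K12733 and K12817, differed by -0.85 to -0.70. With the dispersion of all 12 sorted libraries 4 components were called lower, and 3 to 17 in the fits of all 4 libraries with the block. In the fit of 6 X1 libraries the count was 2 and 0 without *bruli* replicates 1 and 2, and 1 and 0 without *mbnl* replicates 1 and 2. The median of the 4 libraries was -0.14 without *mbnl* replicate 1.

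Among hnRNPs, abundant nuclear RNA-binding proteins that often repress splicing, 4 of 14 were called lower (28.6%, beside 5.43% of all) and 0 higher, with a median of -0.49 and 13 negative. With limma on log2(cRPKM + 1) 1 was called. With any 1 of the 4 libraries left out 0 were called, and the median was -0.23 without *mbnl* replicate 1. *HNRNPK* comp1569 was at 260 and 187 CPM after *bruli* RNAi against 609 and 360 CPM after *mbnl* RNAi (log2 -1.09, SE 0.22). *HNRNPK* comp1998 and comp2111 differed by -0.71 and -0.60, and for comp2111 the libraries of the groups overlapped. *HNRNPA2B1* comp986 was at 591 and 476 CPM against 1001 and 1119 CPM (log2 -1, SE 0.23). Serine/arginine-rich factors, which mostly activate splicing, had 3 of 15 called lower (20.0%, beside 5.43% of all) and none higher. The 3 were *SRSF10* comp1695 at -0.72, *SFRS2* at -0.69 and *TRA2B* comp4073 at -0.66. None of the 15 was called with limma, with the dispersion of 6 or 12 libraries, or with any 1 *bruli* or *mbnl* library left out, and their median of -0.37 was -0.59 without *mbnl* replicate 2. *KHDRBS2* comp1578, a STAR-family splicing regulator, was at 214 and 166 CPM against 367 and 381 CPM (log2 -0.99, SE 0.21).

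Several RNA-binding and RNA-processing transcripts outside those groups were also lower after *bruli* RNAi. *RECQL* comp7318, named after a DNA helicase, was at 12.6 and 21.6 CPM against 26.6 and 58.6 CPM (log2 -1.26, SE 0.23). *ADARB2*, related to the adenosine deaminases that edit RNA, was at 147 and 141 CPM against 267 and 276 CPM (log2 -0.92, SE 0.21). The polypyrimidine-tract binding homologue *ptbp-2*, a splicing repressor family, was at 404 and 413 CPM against 688 and 625 CPM (log2 -0.68, SE 0.22). Of 48 DEAD and DEAH helicases, which remodel RNA at the cost of ATP, 5 were called lower (10.4%, beside 5.43% of all) and 1 higher (2.08%, beside 7.08% of all), with a median of -0.11. The lower ones were both *DDX4* transcripts, *DDX17* (-0.81), *DHX15* comp5858 (-0.69) and *DDX3X* comp2411 (-0.64), and in *DDX3X* comp2411 the groups overlapped.

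Fewer listed transcripts were higher after *bruli* RNAi. Over the 333 tested transcripts that the study annotated, 10 were called higher and 37 lower, against 734 and 563 over all transcripts tested. Of these, 1 of the higher (log2 1.08) and 2 of the lower (log2 -1.12 and -1.10) have neither a gene name nor a KEGG number. The higher ones include the RNAi targets *mbnl-1* and *mbnl-like-1*, and the lower ones *bruli*. The Musashi homologue *MSI1* comp7323, an RNA-binding translational regulator known from neural progenitors, was the highest after the RNAi targets. It was at 43.8 and 48.4 CPM after *bruli* RNAi against 20.4 and 19.4 CPM after *mbnl* RNAi (log2 1.21, SE 0.23, edgeR adjusted p 6.26e-06), and at 18 and 22.6 CPM after control RNAi. *EPB41L5*, a FERM-domain protein of epithelial junctions and a member of the list of orthologues with stem-cell splicing, was at 24.6 and 26.4 CPM against 15.7 and 10.7 CPM (log2 0.98, SE 0.24).

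*nova-1*, homologue of a neuronal splicing regulator, was at 54.7 and 48.2 CPM against 35.8 and 29.8 CPM (log2 0.65, SE 0.22, edgeR adjusted p 0.0328), and DESeq2 did not call it (adjusted p 0.133). *TARDBP* comp12522, homologue of the RNA-binding protein TDP-43, was higher by 0.74, *PABPC1* comp6574, a poly(A)-binding protein, by 0.66, and *DHX8* comp8001, a helicase that releases spliced mRNA, by 0.61. DESeq2 called none of these 3 transcripts either. *SPEN* comp4709, a large transcriptional corepressor in other animals, was at 96.4 and 207 CPM against 59.5 and 109 CPM (log2 0.82, SE 0.21), and its groups overlapped although the direction was the same within each replicate. Of 8 tested members of the neural list, 2 were called higher, *MSI1* comp7323 and *nova-1*, and none lower. Over all transcripts tested, 7.08% were called higher and 5.43% lower. Of the 8 neural members, 1 to 2 were called higher in the fits of all 4 libraries with the block. Of the 12 RNAi targets of the series that were tested, 7 were not called and differed by -0.46 to 0.35, *rbfox-1* being the lowest of them (edgeR adjusted p 0.151).

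The other lists held few calls. Of 17 snRNP, Sm and LSm transcripts 2 were called lower (11.8%, beside 5.43% of all). Their median was -0.33, but 0.06 within replicate 1 and -0.60 within replicate 2. It was -0.68 without *mbnl* replicate 1, and -0.02 in the fit of 6 X1 libraries without *mbnl* replicate 2. Of 11 transcripts for 3' splice site recognition and of 9 STAR and KH transcripts 1 each was called lower (9.09% and 11.1%, beside 5.43% of all). They were *SF3B4* and *KHDRBS2* comp1578, and the list medians were -0.26 and -0.16. In edgeR 0 were called among 12 exon junction and export transcripts (median -0.24), 5 of the TIA1 family (-0.39), 7 of small-RNA silencing (-0.05), 3 epithelial (0.04) and 1 muscle transcript (-0.27). Translation factors had 1 of 13 called in each direction, *PABPC1* comp6574 higher and *LSM14B* (-0.65) lower. That is 7.69% each, near the 7.08% higher and 5.43% lower of all. Of 16 orthologues with stem-cell splicing 2 were called higher (12.5%, beside 7.08% of all), *EPB41L5* and *mbnl-1*, itself a target of the *mbnl* RNAi. Lower was 1 (6.25%, near the 5.43% of all), *ADD3* (-0.69), a cytoskeletal adducin. Of all 266 tested RNA-binding transcripts, which include most of the above, 9 were called higher (3.38%, beside 7.08% of all). Lower were 28 (10.5%, beside 5.43% of all), and the median was -0.15. The 9 include the RNAi targets *mbnl-1* and *mbnl-like-1*, and the 28 include *bruli*.

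The called transcripts of the annotation and the 4 described by identifier below make 51. Of these, 44 were called by DESeq2, 20 by limma on log2(cRPKM + 1) and 24 with the dispersion of all 12 sorted libraries, where edgeR gave *PIWIL1* comp659 an adjusted p of 0.193. All 51 kept their sign whichever library was left out, as did 1242 to 1297 of all 1297 calls. Those fits reuse libraries on which the calls were made, which by itself makes like signs likely.

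**Figure D3:**
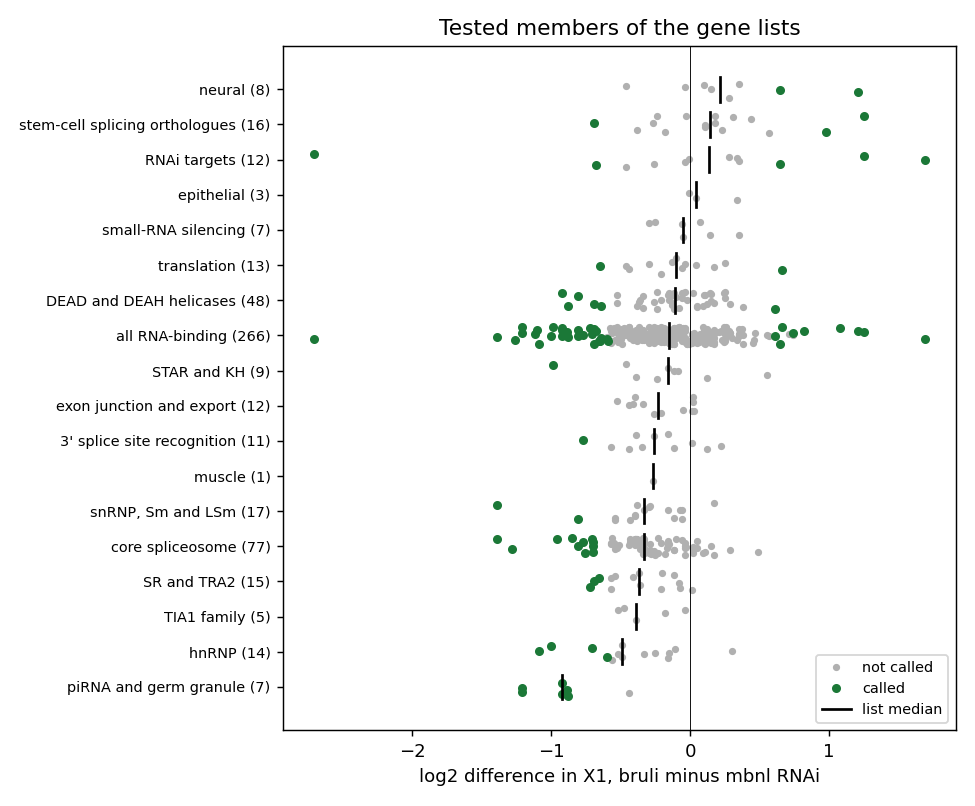
Log2 differences in X1, *bruli* minus *mbnl* RNAi, of the tested members of 18 gene lists, with the number tested in parentheses. Each point is 1 transcript, green where called, and the black bar is the list's median. The germ-granule list lies lowest, with a median of -0.92 and 6 of 7 members called lower, and the hnRNP list follows at -0.49. Some lists share members.

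The annotation tables cover 333 of the transcripts tested, and the other 10028 are known here by identifier only. The largest differences lay among the latter. The transcript comp534 was at 23.9 and 5.74 CPM after *bruli* RNAi and at 0.465 and 0.4 CPM after *mbnl* RNAi (log2 4.70, SE 0.38). comp755 was at 9.05 and 1.86 CPM against 0.233 and 0.143 CPM (log2 4.50, SE 0.53). Both were higher in replicate 1 than in replicate 2 of *bruli* RNAi, and the wild type X1 library also held 3.6 CPM of comp534 and 0.899 of comp755. After *mbnl* RNAi both rested on few counts, since 3 counts equal 0.154 and 0.0858 CPM in those libraries. The size of these 2 differences is therefore uncertain. The filter averaged over the same 4 libraries, so the levels after *bruli* RNAi helped both transcripts to pass it. In the other direction, comp31879 was at 2.92 and 1.47 CPM against 28.4 and 20.6 CPM (log2 -3.53, SE 0.29), with control(RNAi) libraries in between at 13.5 and 9.57 CPM. comp28105 had the same difference of -3.53 but rested on 8 counts after *bruli* RNAi and 98 after *mbnl* RNAi.

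Where a transcript is found in unperturbed worms gave a further description. In wild type libraries, 1110 transcripts were at least 2 higher on log2(cRPKM + 1) in X1 than in Xins, the differentiated cells, and 4225 were at least 2 lower. These levels, cRPKM, are the deposited values corrected for mappable length and for depth. Of 1193 tested Xins-enriched transcripts, 322 were called higher after *bruli* RNAi (27.0%, beside 7.08% of all) and 10 lower, with a median of 0.43. Of 1100 tested X1-enriched transcripts, 183 were called lower (16.6%, beside 5.43% of all) and 17 higher, with a median of -0.21, which was -0.06 without *mbnl* replicate 2 and -0.32 without *bruli* replicate 2. X2-enriched transcripts were those at least 1 higher in the progeny fraction X2 than in X1 and Xins. Of 241 tested, 42 were called higher (17.4%, beside 7.08% of all) and 15 lower (6.22%, near the 5.43% of all). Their median was 0.12, which was 0.01 without *bruli* replicate 1 and 0.32 without *mbnl* replicate 1. With the dispersion of the 12 sorted libraries 72 Xins-enriched transcripts were called higher and 3 lower, 2 X1-enriched ones higher and 54 lower, and 3 X2-enriched ones higher and 4 lower. Without *bruli* replicate 1 or 2 or *mbnl* replicate 1 or 2, the fit of 6 X1 libraries called 56, 13, 13 and 24 Xins-enriched transcripts higher and 32, 7, 57 and 39 X1-enriched ones lower. Read the other way, 43.9% of the higher transcripts were Xins-enriched and 2.32% X1-enriched, against 1.78% and 32.5% of the lower ones.

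Summed levels moved with these sets. Xins-enriched transcripts took 2.80% and 2.46% of counts in the *bruli*(RNAi) libraries, 1.81% and 1.64% in the *mbnl*(RNAi) libraries, 2.68% and 1.55% after control RNAi and 1.83% in wild type X1. The control(RNAi) replicate 1 library thus lay within the *bruli*(RNAi) range. X1-enriched transcripts took 15.2% and 14.8% of counts after *bruli* RNAi, and 18.2% to 18.9% in the other 5 X1 libraries. In Xins libraries themselves the Xins-enriched set took 38.9% to 43.9%. The part of RNA from differentiated cells in this result was not tested. Of the 97 higher transcripts that reached 4-fold within replicate 1, 78 were Xins-enriched.

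**Figure D4:**
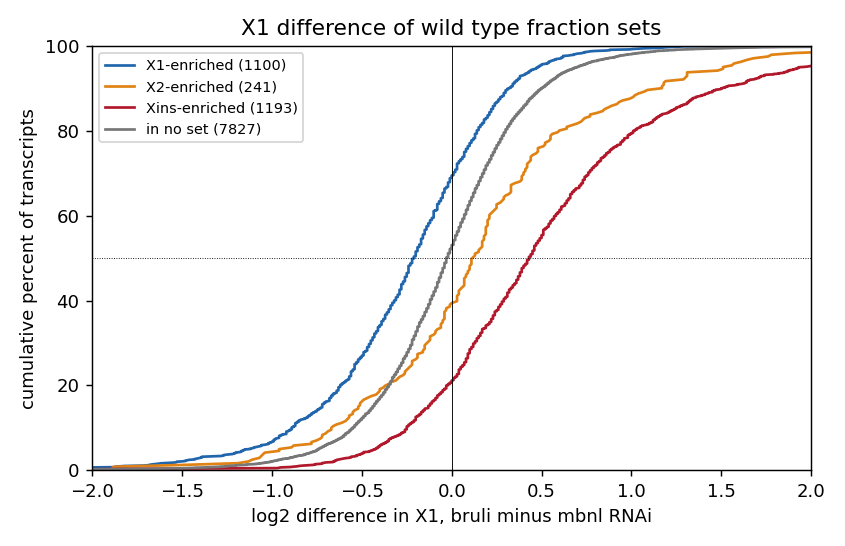
Cumulative share of transcripts (percent) against the log2 difference in X1, *bruli* minus *mbnl* RNAi, for the wild type sets, with the number tested in parentheses. The axis runs from -2 to 2, and the few transcripts beyond it are not drawn. The Xins-enriched curve lies to the right, crossing the dotted 50% line at its median of 0.43, and the X1-enriched curve to the left, at -0.21.

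The control(RNAi) libraries show on which side of the contrast the differences lay. In a fit of the 6 X1 RNAi libraries, in which both contrasts share the 2 control libraries, the transcripts called higher had a median of 0.76 for *bruli* minus control and -0.21 for *mbnl* minus control. Those called lower had medians of -0.71 and 0.20. The difference from control was the larger one for *bruli* RNAi in 553 of 734 higher and 440 of 563 lower transcripts. Control lay between the knockdowns for 466 of the higher and 410 of the lower transcripts. Both knockdowns lay above control for 213 of the higher transcripts and below it for 140 of the lower ones. The transcripts were called on the difference between the knockdowns in libraries that are also in this fit. That by itself makes large differences from control likely. The same counts over all transcripts tested were not made, so these are a description only.

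By edgeR's quasi-likelihood test with the block, 440 transcripts were called between *bruli* and control RNAi in X1, or 4.25% of those tested (260 higher, 180 lower). Between *mbnl* and control RNAi 0 were called, or 0%, with 579 at an unadjusted p under 0.05. Without control replicate 2 the latter count was 238, without control replicate 1 it was 31, without *mbnl* replicate 2 it was 2, and without either *bruli* library it was 3. The count for *bruli* was 0 without the replicate block, 76 without *bruli* replicate 2, 138 without *bruli* replicate 1, and 797 without control replicate 2. It was 729 and 782 without *mbnl* replicates 1 and 2. *MSI1* comp7323 differed from control by 1.19 after *bruli* RNAi and by -0.02 after *mbnl* RNAi, and *PIWIL1* comp1258 by -1.33 and -0.12. *HNRNPK* comp1569 differed by -0.79 and 0.30, and *KHDRBS2* comp1578 by -0.75 and 0.23, so that the knockdowns lay on opposite sides of control, though none of these 4 differences from control was called.

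The same contrast gave no calls in Xins and could not be tested in X2 and whole worms. In Xins cells, with 2 libraries per knockdown, edgeR called 0 of 13140 transcripts (0%), with 526 at an unadjusted p under 0.05. Without *mbnl* Xins replicate 2 it called 498, and without any other Xins library 1. The X1 transcripts called higher had a median of 0.23 in Xins (519 of 697 tested positive) and those called lower a median of -0.18 (374 of 491 negative), beside 0 over all. Transcripts chosen by their X1 difference are likely to differ less in other libraries by that choice alone. The direct test of the difference between X1 and Xins called 0 of 12454 transcripts (0%), with 1046 at an unadjusted p under 0.05. A difference in response between the fractions was therefore not detectable for any single transcript with these libraries.

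X2 and whole worms had 1 library per knockdown, which allows no test, so log2 ratios of cRPKM + 1 are given as a description. In X2 the higher transcripts had a median of 0.63 and 641 of 734 were positive, where all transcripts had a median of 0.13 and 6281 of 10361 positive. The lower transcripts had a median of -0.26, with 392 of 563 negative. In whole worms the medians were 0.19 for the higher and -0.07 for the lower transcripts, beside 0.17 over all. *bruli* itself differed by -1.81 in X2, -1.60 in Xins and -3.18 in whole worms. *mbnl-1* differed by 2.79, 1.02 and 1.00 and *mbnl-like-1* by 2.48, 1.91 and 2.15, in the same order.

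Germ-granule transcripts varied in their values outside X1. *PIWIL1* comp659 differed by -1.37 in X2, -1.03 in Xins and -1.27 in whole worms, but *PIWIL1* comp1258 by -0.65, 0.06 and -0.62. *DDX4* comp1985 differed by -0.29, -0.14 and -0.66, *TDRD9* by -0.18, -0.05 and -0.36, and *TDRKH* by -0.87, -0.10 and -0.02. None of these 5 transcripts was called in Xins or in the test of X1 against Xins. *MSI1* comp7323, higher by 1.21 in X1, differed by 0.18 in X2, -0.12 in Xins and 0.23 in whole worms, and its difference between X1 and Xins was not called (edgeR adjusted p 0.299). *EPB41L5* differed by 1.05 in X2, close to its 0.98 in X1, and by 0.16 in Xins.

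**Figure D5:**
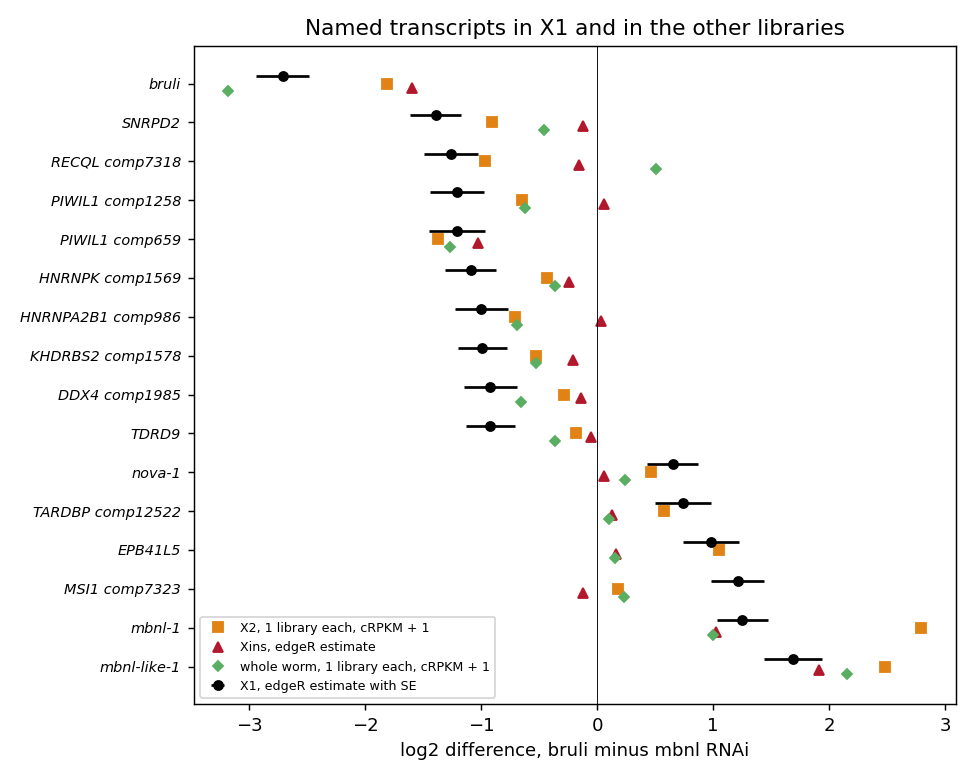
Log2 differences, *bruli* minus *mbnl* RNAi, of 16 named transcripts in X1 (black circles with 1 SE), X2 (squares), Xins (triangles) and whole worms (diamonds). X1 and Xins are edgeR estimates from 2 libraries per knockdown, while X2 and whole worms are ratios of cRPKM + 1 from 1 library each. The RNAi targets keep their direction throughout, such as *mbnl-like-1* at 1.69, 2.48, 1.91 and 2.15, while *MSI1* comp7323 lies at 1.21 in X1 and within 0.23 of 0 elsewhere.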

How the data were processed

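RNA of X1, X2 and Xins cells and of whole worms was sequenced from TruSeq libraries. Per the labels and the study's methods, the authors mapped reads with Bowtie to a *de novo* transcriptome. They deposited, for 22944 transcripts in each of 28 libraries, a raw count and a cRPKM, an RPKM corrected for mappable positions. The versions of these tools are not stated in any source used here. Blank counts, all with a cRPKM of 0, were read as 0.

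Counts of the 4 libraries were tested with edgeR 4.0.16 (TMM, quasi-likelihood test, two-sided) in R 4.3.3, with the replicate number as a block, on transcripts with mean log2(cRPKM + 1) above 1.5. Standard errors are the log2 difference divided by the square root of the F statistic. The block follows the request for this comparison. The labels do not say that a replicate number marks a shared batch. Differences between replicates 1 and 2 correlated across transcripts at 0.760 between *bruli* and *mbnl* RNAi, 0.698 between *bruli* and control and 0.569 between *mbnl* and control, and depth and the authors' cRPKM totals split by number (1.16 to 1.18 times the summed counts in replicate 1 of the X1 RNAi libraries, 1 in replicate 2). Libraries within a group were not duplicates (correlation 0.962 and 0.939). Xins, the 8-library interaction and the 6-library control contrasts were fitted alike. DESeq2 1.42.0, limma 3.58.1 and other filters, scalings and library sets were alternatives, and scripts were tested on simulated data.

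Gene names come from the study's annotation tables (367 of 372 identifiers were found, 350 of them with a name or KEGG number). Reads shared between transcripts of 1 human name were not examined. Named are the RNAi targets, markers, the 12 annotated transcripts per direction with the largest difference among those called with groups apart, the 2 identifiers per direction with the largest difference, and the 3 members of each list that differed most, and transcripts not called are mostly given by counts and ranges. Further called members of the lists were named after their values were seen. The comparison, the 18 lists, the markers and the wild type sets were chosen with earlier results of these data known. Not analysed here were *MARK1* and, among the targets, *ptbp-1*, *celf-3*, *mbnl-like-2* and *celf-1*.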

Additional observations from a re-analysis of the deposited data

Results flagged for a closer look

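The neural list was the 1 of 18 lists and 3 wild type sets whose median had the same sign in both replicates of X1 and the opposite sign in both replicates of Xins. In X1 its 8 tested members had medians of 0.44 and 0.16 on the log2 scale (*bruli* minus *mbnl* RNAi, replicates 1 and 2). In Xins its 13 tested members had medians of -0.02 and -0.01, beside 0.01 and 0.03 over all transcripts. The members tested differ between the fractions, and the difference between the medians was not tested. The X1 median over both replicates, 0.21, was -0.02 without *bruli* replicate 1, 0.48 without *bruli* replicate 2, and 0.62 and 0.41 without *mbnl* replicates 1 and 2.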

How the results depend on the processing

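All 1297 calls kept their sign in the fits of all 4 libraries that tested them, but their number depended on the processing. Without the replicate block it was 0. It was 741 with DESeq2, 629 and 739 with limma on log2(cRPKM + 1) and log2(cRPKM + 0.1), 533 with the 6 X1 RNAi libraries and 312 with the 12 sorted RNAi libraries. Leaving out 1 library gave 5 to 127 calls without the block and 58 to 1304 among the 6. For *bruli* against control, 440 calls became 0 without the block and 76 to 797 without 1 library. For *mbnl* against control the range was 0 to 238, and in Xins 1 to 498. These counts and that of the difference between X1 and Xins were 0 with and without the block.

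The median of X1-enriched transcripts was -0.27 with DESeq2 and its size factors in edgeR, -0.09, -0.10 and -0.14 with limma (pseudocounts 1 and 0.1, quantile scaling), and -0.32 to -0.06 without 1 library. That of Xins-enriched transcripts was 0.37 with both DESeq2 settings and with no filter, 0.39 with filterByExpr, 0.54 with limma at 0.1, 0.26 with quantile scaling, and 0.37 to 0.58 without 1 library. That of X2-enriched transcripts was 0.23 with limma at 0.1 and 0.01 to 0.32 without 1 library. In X2 the median of the higher transcripts was 0.77 with a pseudocount of 0.1.

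With 2 libraries per group, 1 residual degree of freedom and replicate numbers whose meaning the labels do not give, the adjusted p-values rest on the pairing. The shallowest library sets the floor of 0.154 CPM.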
